A study of Mus musculus with 12 samples.

Results

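Radial glia are the stem cells of the embryonic cortex. They line the ventricle, span the wall of the developing pallium with a long fibre, and divide to renew themselves or to give intermediate progenitors and neurons. Their identity is read from a small set of genes: transcription factors that keep the progenitor state (Pax6, Sox2, Sox9, Gli3), the chromatin protein Hmga2 of early progenitors, the intermediate filament proteins Nes and Vim, the lipid carrier Fabp7, the glutamate transporter Slc1a3 and the apical membrane protein Prom1. These 10 genes are described here gene by gene in 12 mouse embryos. They were chosen by symbol from textbook knowledge of the cell type, with earlier results of these data known. Each of the 10 was found among the 54735 gene symbols in every library. All 10 averaged 1 TPM or more over the 12 embryos and entered the tests, as did 11764 genes in all.

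The RNA came from the dorsal telencephalon (pallium) of C57/Bl6 embryos at stage E13.5, 4 embryos in each of 3 genotypes. Control embryos were Rnu11wt/flx::Trp53wt/wt::Emx1-Cre+, with a floxed and a wild-type allele of Rnu11. The cKO embryos were Rnu11flx/flx::Trp53wt/wt::Emx1-Cre+, and the dKO embryos were Rnu11flx/flx::Trp53flx/flx::Emx1-Cre+. Rnu11 encodes the U11 small nuclear RNA of the minor spliceosome, the machinery for a small class of introns, and Trp53 encodes p53, a transcription factor of the damage response. Emx1-Cre deletes floxed alleles in the progenitors of the pallium and their progeny, not in vessels, microglia or meninges of the same tissue. All 12 embryos carried it, so the controls were heterozygous for the Rnu11 deletion. The labels name separate embryos and no litters, so p-values measure the spread between these embryos. The cKO against control comparison addresses what loss of U11 does to these genes, and the dKO comparisons address what changes when p53 is lost as well.

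The values are TPM, transcript abundance per gene length with a fixed sum per library, and they keep no sequencing depth. Precision was therefore judged from the spread between embryos, and the depth of the libraries is unknown. In the order control, cKO and dKO, scaled Rnu11 was 682 ± 71.7, 124 ± 17.3 and 178 ± 31.5 TPM, and scaled Trp53 was 4.03 ± 1.64, 3.65 ± 0.207 and 1.33 ± 0.255 TPM (SD, n = 4 per group). The lower Rnu11 in both mutants and the lower Trp53 in dKO are what the genotypes give. Scaled TPM is the deposited TPM divided by 1 factor per library, the median ratio of 11527 genes to their geometric means. The factors ran from 0.875 to 0.988 in control, 1.07 to 1.31 in cKO and 0.899 to 0.954 in dKO. As deposited, the median of all tested genes differed by 0.25 on the log2 scale between cKO and control, by -0.01 between dKO and control and by -0.26 between dKO and cKO. Changes are therefore given on the scaled values, as differences of log2(scaled TPM + 1), and beside them as deposited where the choice changes a direction or a call. The added 1 makes a change understate that of low genes such as Sox9. A gene is called changed where the adjusted p of limma (Benjamini-Hochberg over all 11764 genes) is under 0.05. By this rule Rnu11 itself was higher in dKO than in cKO on scaled values (0.51, limma adjusted p = 0.0463). It was not called as deposited (0.18, limma adjusted p = 0.337). Remaining Rnu11 may thus differ between the mutants as well as Trp53, and the cause was not tested.

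The 10 genes covered a wide range of levels in control pallium. Fabp7, the brain lipid-binding protein, had the highest mean at 117 ± 22.0 scaled TPM, followed by Vim, the filament protein vimentin, at 91.2 ± 11.3 (SD, n = 4 each), and the embryos of these 2 genes overlapped. Prom1 (CD133, a protein of apical membrane protrusions) was at 23.0 ± 1.43, Nes (nestin) at 18.5 ± 2.03 and Pax6 at 15.7 ± 2.13, with overlap between Nes and Pax6. Slc1a3 (GLAST, the glutamate transporter of radial glia and astrocytes) and Sox2 had the same mean to 3 digits, 11.6, with SDs of 0.783 and 1.26. Hmga2 at 4.99 ± 0.905 and Gli3 at 3.64 ± 0.772 overlapped as well. Sox9 was the lowest at 1.87 ± 0.626. TPM is scaled for length, so these levels can be set beside each other within the limits of the annotation used.

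In the GENCODE M21 annotation of GRCm38, the build that matches the mm10 named in the submitters' processing notes, Sox2 is at chr3:34650405-34652461 on the plus strand and lies inside Sox2ot, a long non-coding gene on the same strand. Pax6 (chr2:105668900-105697364) overlaps the antisense gene Pax6os1, and Gli3, Slc1a3, Prom1 and Hmga2 overlap other annotated genes. Sox9, Nes, Vim and Fabp7 overlap no other annotated gene. How reads from overlapping genes were assigned is not given in the sources used here, so the values of the 6 overlapped members are uncertain to that extent. Sox2ot was lower than Sox2 in every group, with scaled TPM of 2.46 ± 0.430, 3.67 ± 0.177 and 3.22 ± 0.222 for control, cKO and dKO (SD, n = 4 per group).

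Sox2 and Slc1a3 lay on opposite sides of 0 in cKO against control, and Fabp7 and Hmga2 lay on the same side as Slc1a3, so the promoters of these 4 genes are shown. Each is 300 bases of RefSeq sequence on GRCm38.p6, read 5′ to 3′ on the gene's strand, from 250 bases before to 50 after the start that RefSeq gives. For Sox2 that start is at 34649995, which is 410 bases upstream of the GENCODE start above, so the Sox2 window ends before the latter. The RefSeq starts of Fabp7, Slc1a3 and Hmga2 lie 42, 43 and 0 bases from their GENCODE starts. Capitals mark matches on either strand to the GC box GGGCGG, the CCAAT box CCAAT and the core ACAAT bound by SOX proteins. The Sox2 promoter (chr3:34649745-34650044, plus strand) holds 2 GC boxes, 1 CCAAT box and no SOX core.
Sox2: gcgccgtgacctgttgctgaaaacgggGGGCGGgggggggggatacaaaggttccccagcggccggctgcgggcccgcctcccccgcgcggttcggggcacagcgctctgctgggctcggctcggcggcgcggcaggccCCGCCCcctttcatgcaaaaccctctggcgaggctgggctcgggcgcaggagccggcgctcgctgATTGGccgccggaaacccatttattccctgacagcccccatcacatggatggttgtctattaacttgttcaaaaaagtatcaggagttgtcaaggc
The Slc1a3 promoter (chr15:8710758-8711057, minus strand) holds 1 GC box, 3 CCAAT boxes and 1 SOX core.
Slc1a3: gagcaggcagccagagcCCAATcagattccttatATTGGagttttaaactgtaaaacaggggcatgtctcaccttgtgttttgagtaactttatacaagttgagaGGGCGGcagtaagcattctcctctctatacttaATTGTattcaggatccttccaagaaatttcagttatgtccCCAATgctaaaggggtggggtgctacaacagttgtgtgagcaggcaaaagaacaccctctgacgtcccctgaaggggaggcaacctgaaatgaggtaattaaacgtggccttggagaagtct
The Fabp7 promoter (chr10:57784673-57784972, plus strand) holds no GC box, 2 CCAAT boxes and 1 SOX core.
Fabp7: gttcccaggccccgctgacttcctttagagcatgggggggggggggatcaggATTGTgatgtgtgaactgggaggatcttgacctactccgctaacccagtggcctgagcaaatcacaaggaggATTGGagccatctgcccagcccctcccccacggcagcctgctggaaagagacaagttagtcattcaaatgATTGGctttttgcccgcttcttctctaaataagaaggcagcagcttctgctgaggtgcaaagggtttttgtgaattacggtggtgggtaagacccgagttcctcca
The Hmga2 promoter (chr10:120476420-120476719, minus strand) holds 1 GC box, no CCAAT box and 1 SOX core.
Hmga2: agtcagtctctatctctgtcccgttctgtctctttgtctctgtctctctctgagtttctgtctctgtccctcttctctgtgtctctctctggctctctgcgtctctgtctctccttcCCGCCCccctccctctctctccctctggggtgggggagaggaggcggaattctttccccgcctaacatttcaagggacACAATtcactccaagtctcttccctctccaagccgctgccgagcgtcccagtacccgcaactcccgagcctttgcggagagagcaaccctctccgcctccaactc
Of the 10 genes, 9 matched the promoter table, with 11 promoters between them. The GC box was in 6 of these 11 and in 35.7% of all 32851 promoters, the CCAAT box in 6 and in 37.4%, and the SOX core in 5 and in 31.0%. Promoters of Nes and Pax6, not shown, also held a SOX core, and both genes had lower scaled means in cKO than in control. The G and C share was 66.3% for Sox2, 57.7% for Hmga2, 54.0% for Fabp7 and 45.3% for Slc1a3, against a median of 52.7% over the table. A match describes the letters in the window and was not tested as a binding site.

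All 10 genes were detected in every cKO embryo, and Sox2 was the one called lower on scaled values. Pax6, Sox9, Gli3, Nes, Vim and Prom1 had lower means, and Fabp7, Slc1a3 and Hmga2 higher ones, without passing the test on scaled values. In cKO against control, 1 of the 10 was called lower and 0 higher on scaled values, where 7.22% of all tested genes were called (466 higher and 383 lower). The median change of the 10 was -0.17 on the log2 scale and that of all tested genes was -0.00. As deposited, none of the 10 was called lower and 3 were called higher (Fabp7, Slc1a3 and Hmga2), where 35.4% of all tested genes were called. Their deposited median was 0.09 against 0.25 for all tested genes. On both scales, the median of the 10 was thus below that of all genes.

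**Figure D1:**
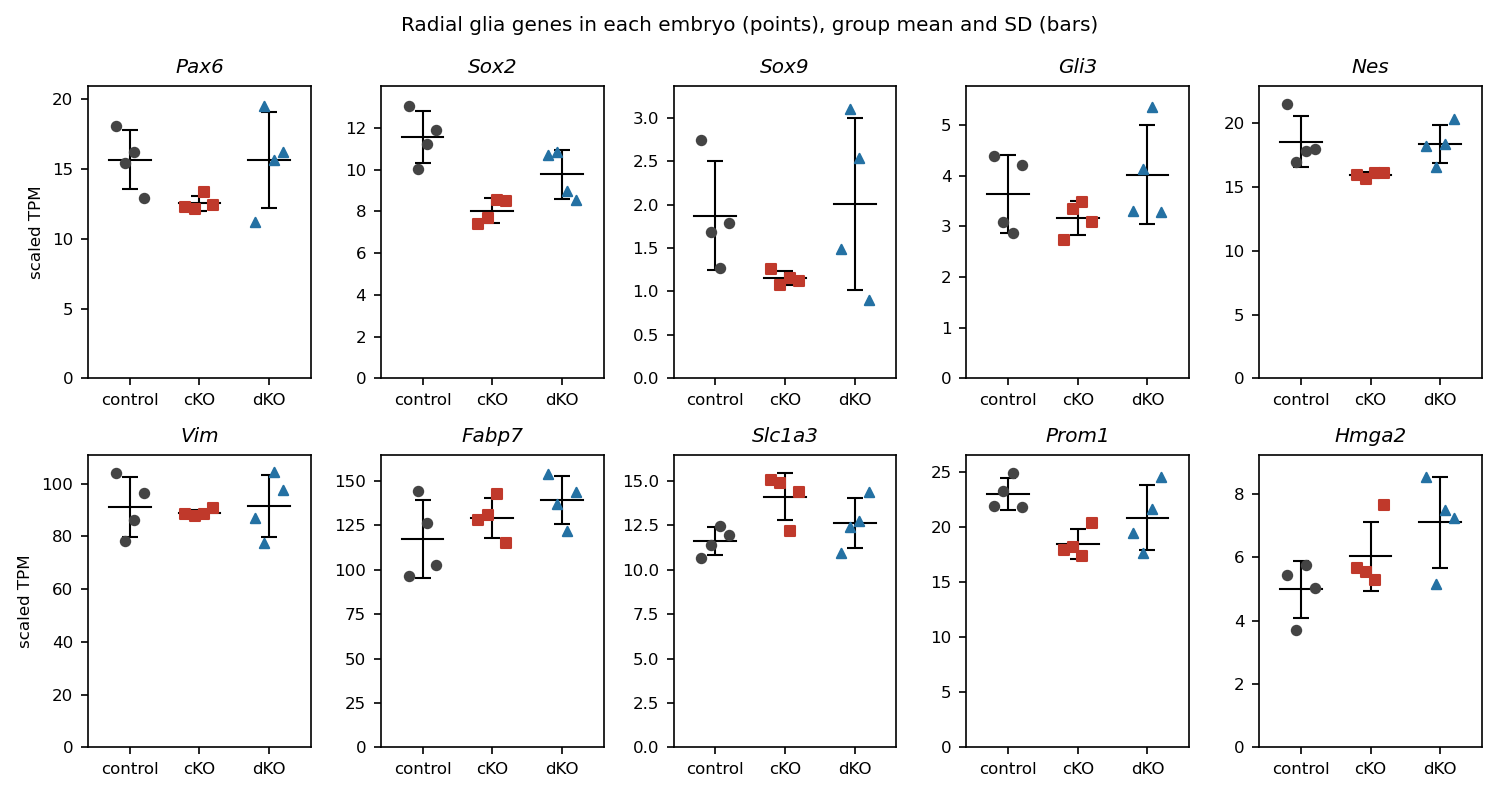
Scaled TPM of the 10 genes in each of the 12 embryos, 1 panel per gene with its own axis from 0; points are embryos and bars are means of 4 with SD. The 4 cKO embryos lie between 7.41 and 8.56 for Sox2, under every control embryo, and between 12.2 and 15.04 for Slc1a3.

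Sox2, a transcription factor that maintains neural progenitors, gave the clearest difference. Its scaled TPM was 13.05, 10.04, 11.2 and 11.9 in the control embryos, 7.41, 7.67, 8.56 and 8.50 in cKO, and 10.7, 10.9, 8.97 and 8.54 in dKO. Every cKO embryo was below every control embryo. The change was -0.47 ± 0.0951 on the log2 scale (SE, n = 4 embryos per group, limma adjusted p = 0.0108; 95% interval -0.68 to -0.27). As deposited, Sox2 was 10.9 ± 1.70 TPM in control and 9.36 ± 1.32 in cKO (SD, n = 4), and its change of -0.19 was not called (limma adjusted p = 0.236). The direction was thus the same on both scales, and the call was not. Sox2ot, which surrounds Sox2 on the same strand, rose by 0.44 in cKO (limma adjusted p = 0.00769), in the opposite direction to Sox2.

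The other transcription factors did not pass the test. Pax6, which sets dorsal identity and the neurogenic programme, was 18.1, 15.5, 16.2 and 12.9 scaled TPM in control and 12.3, 12.1, 13.3 and 12.4 in cKO. The lowest control embryo lay among the cKO embryos, and the change was -0.29 ± 0.139 (SE, limma adjusted p = 0.239; 95% interval -0.60 to 0.01). As deposited, the 2 groups of Pax6 differed by -0.00. Sox9, a factor of stem cell maintenance and later of gliogenesis, was 2.75, 1.68, 1.27 and 1.79 in control and 1.26, 1.08, 1.16 and 1.12 in cKO. All cKO embryos were below all control embryos by a narrow margin, and the change of -0.39 ± 0.214 was not called (SE, limma adjusted p = 0.314). Gli3, which acts mainly as a repressor of Hedgehog targets in the dorsal telencephalon, was 3.64 ± 0.772 in control and 3.16 ± 0.329 in cKO (SD, n = 4) with overlapping embryos, and its sign differed between scales (-0.15 scaled, 0.09 as deposited).

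Hmga2, an architectural chromatin protein that is high in early neural stem cells and is held down by let-7 microRNAs later, was 5.44, 3.71, 5.77 and 5.02 scaled TPM in control and 5.66, 5.55, 5.28 and 7.66 in cKO. Embryo 4 was the high one in cKO, and the other 3 lay within the upper range of control. The scaled change of 0.24 ± 0.153 was not called (SE, limma adjusted p = 0.410). As deposited, Hmga2 was 4.70 ± 1.02 in control and 7.11 ± 1.99 in cKO (SD, n = 4), a change of 0.50 that was called (limma adjusted p = 0.0475).

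The filament genes differed from each other. Nes was 21.5, 16.9, 17.8 and 17.98 scaled TPM in control and 15.9, 15.6, 16.1 and 16.04 in cKO. Each cKO embryo was below each control embryo, and the cKO embryos were close together. The change of -0.20 ± 0.0809 was not called (SE, limma adjusted p = 0.159), and its sign differed as deposited (0.09). Vim was 104, 78.3, 86.1 and 96.4 in control and 88.5, 87.7, 88.4 and 90.6 in cKO, so the cKO embryos lay inside the control range. Its scaled change was -0.03 (limma adjusted p = 0.915; 95% interval -0.26 to 0.20), with a deposited change of 0.28 (limma adjusted p = 0.121).

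Among the membrane and metabolic genes, Slc1a3 was 10.7, 11.4, 12.5 and 11.95 scaled TPM in control and 15.04, 14.9, 12.2 and 14.4 in cKO. In cKO, 3 embryos were above every control embryo and embryo 3 lay within the control range. The scaled change was 0.26 ± 0.0908 (SE, limma adjusted p = 0.109). As deposited, Slc1a3 was 10.9 ± 0.793 in control and 16.5 ± 2.48 in cKO (SD, n = 4), and it rose by 0.55 (limma adjusted p = 0.00505) with no overlap. Fabp7 was 96.3, 144, 126 and 103 scaled TPM in control and 128, 131, 142 and 115 in cKO, with overlap and a change of 0.15 (limma adjusted p = 0.547). As deposited it rose by 0.46 (limma adjusted p = 0.00955), from 109 ± 15.4 to 149 ± 8.08 (SD, n = 4). Prom1 was 21.9, 23.3, 24.9 and 21.9 in control and 17.98, 18.2, 17.4 and 20.4 in cKO. Its cKO embryos were all below control, and the change of -0.30 ± 0.0955 missed the threshold (SE, limma adjusted p = 0.0806), with -0.01 as deposited.

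**Figure D2:**
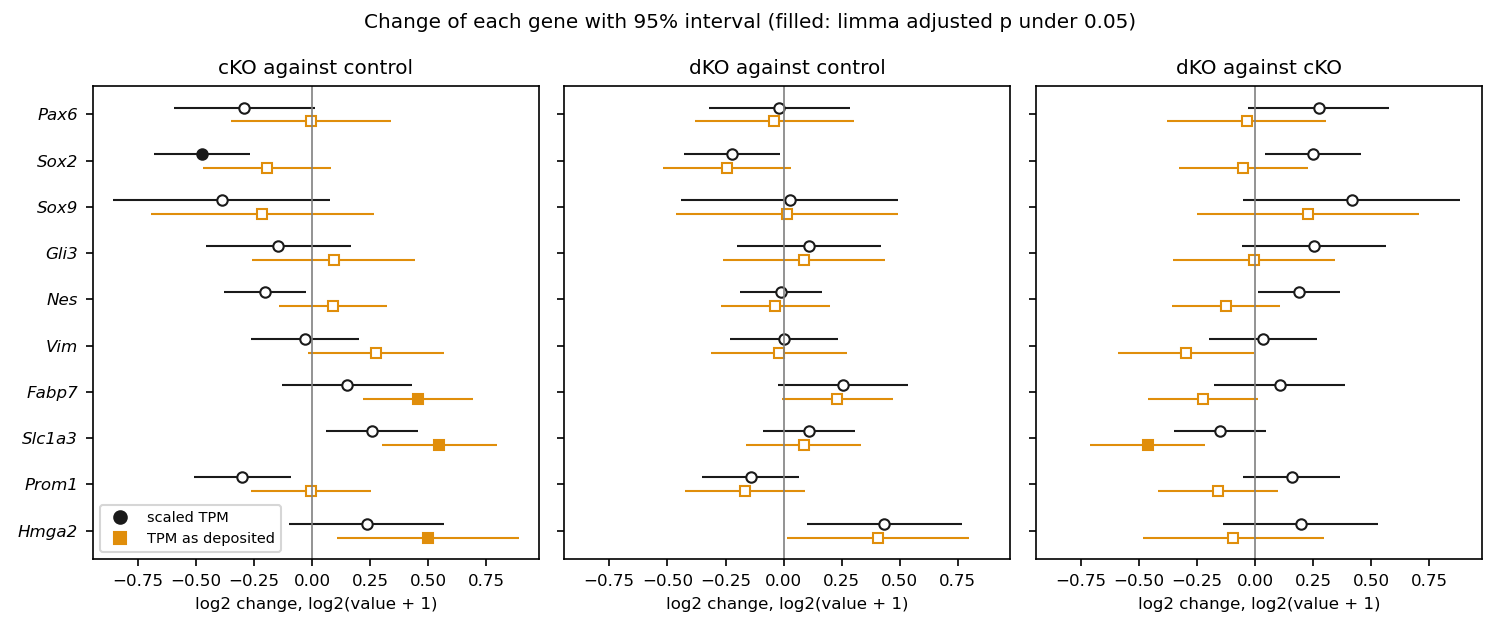
Change of each of the 10 genes in log2(TPM + 1) for the 3 comparisons, with 95% intervals from the limma fit, on scaled values (circles) and as deposited (squares), filled where the adjusted p is under 0.05; the line at 0 marks no change. In cKO against control the deposited values lie to the higher side of the scaled ones for all 10 genes, and in dKO against control both scales nearly coincide.

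Counting embryos in place of the test, cKO lay wholly below control for 4 of the 10 genes (Sox2, Sox9, Nes and Prom1) on scaled values. Over all tested genes, 8.15% lay wholly below control in cKO on scaled values. As deposited, the cKO and control embryos of these 4 genes overlapped, and no member lay wholly below control. None of the 10 lay wholly above control on scaled values, where 9.33% of all tested genes did. As deposited, Fabp7, Slc1a3 and Hmga2 did so, 3 of 10 where 32.7% of all tested genes did, which is near the background. The 95% intervals of 4 of the 10 scaled changes left out 0, which is the same as an unadjusted p under 0.05, and 22.8% of all tested genes had such a p.

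Ratios between members are free of the scaling, since the library factor cancels. They were taken to Sox2 after its values had been seen and are given without a test. Vim was 7.96, 7.79, 7.67 and 8.10 times Sox2 in the control embryos and 11.96, 11.4, 10.3 and 10.7 times in cKO. In dKO the ratio was 8.12, 7.13, 11.6 and 11.4, with embryos 1 and 2 near control and embryos 3 and 4 at the cKO level. Slc1a3 to Sox2 was 0.816, 1.13, 1.11 and 1.004 in control and 2.03, 1.94, 1.42 and 1.69 in cKO, with 1.02, 1.15, 1.42 and 1.69 in dKO. The control and cKO embryos did not overlap for either ratio. In the order control, cKO and dKO, Nes to Sox2 was 1.61 ± 0.0759, 1.99 ± 0.129 and 1.91 ± 0.376, and Hmga2 to Sox2 was 0.430 ± 0.0604, 0.752 ± 0.117 and 0.739 ± 0.178 (SD, n = 4 per group). For Gli3, Nes, Vim, Slc1a3 and Hmga2, 5 of the 9, every cKO ratio was above every control ratio. The same held for 56.3% of all other tested genes set against Sox2, so the count is near the background and shows nothing particular to these 5. For Pax6, Sox9, Fabp7 and Prom1 the ratios overlapped.

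**Figure D3:**
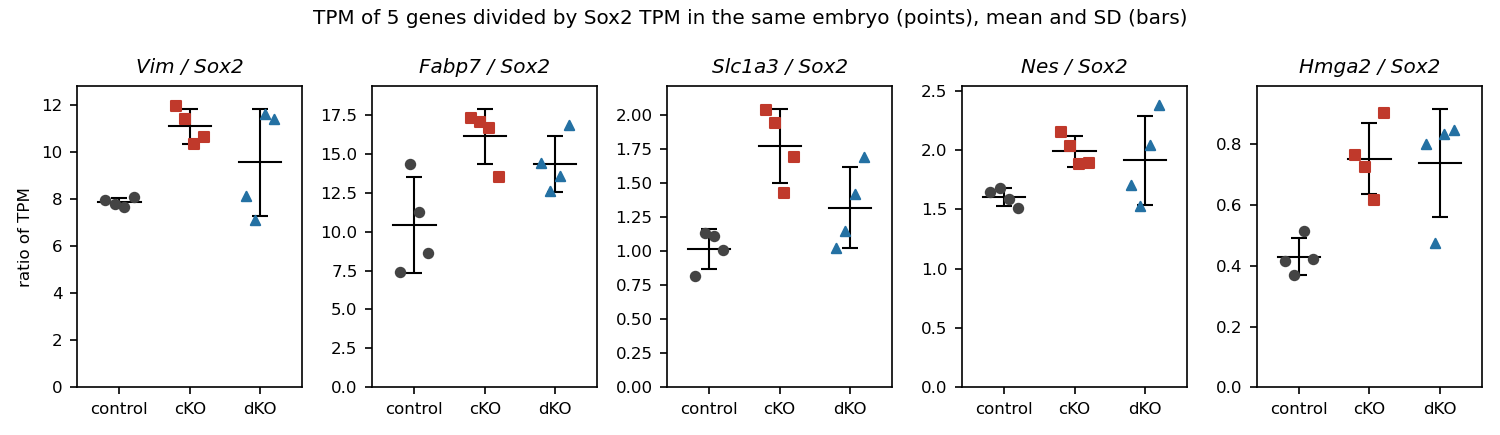
Ratios of Vim, Fabp7, Slc1a3, Nes and Hmga2 to Sox2 in the same embryo, from TPM, 1 panel per gene with its own axis. Points are embryos and bars are means of 4 with SD. The Vim ratio is between 7.67 and 8.10 in control and between 10.3 and 11.96 in cKO, and it falls into a low and a high pair in dKO.

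With U11 and p53 both lost, no member moved past the threshold. In dKO against control none of the 10 was called on either scale, where 9.002% of all tested genes were called on scaled values and 5.19% as deposited. At an unadjusted p under 0.05 there were 2 on scaled values (Sox2 and Hmga2) and 1 as deposited (Hmga2), where 24.8% and 20.1% of all tested genes had such a p, so these counts are near the background. The median of the 10 was 0.02 against 0.00 for all tested genes on scaled values, and -0.00 against -0.01 as deposited. No member separated dKO from control without overlap, while 14.1% of all tested genes did so in either direction. This comparison shares its control embryos with that of cKO against control.

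The largest difference in dKO was that of Hmga2, at 8.55, 5.14, 7.49 and 7.23 scaled TPM. In dKO, 3 of 4 embryos were above every control embryo, and embryo 2 was within the control range. Its change of 0.43 ± 0.153 was not called (SE, limma adjusted p = 0.103; 95% interval 0.10 to 0.77). Sox2 was 9.77 ± 1.18 in dKO (SD, n = 4), between cKO and control, with a change of -0.22 from control (limma adjusted p = 0.168; 95% interval -0.43 to -0.02). Fabp7 was 154, 137, 122 and 144 in dKO, overlapping control, with a change of 0.26 (limma adjusted p = 0.248). Slc1a3 at 10.9, 12.4, 12.8 and 14.4 and Prom1 at 19.5, 17.7, 21.7 and 24.5 also overlapped control, with changes of 0.11 and -0.14. Pax6 was 11.2, 19.5, 15.6 and 16.2, Nes 18.2, 16.6, 18.3 and 20.3, and Vim 86.8, 77.4, 104 and 97.4. The changes of these 3 genes from control were -0.02, -0.01 and 0.00 on scaled values, with 95% intervals of -0.32 to 0.29, -0.19 to 0.16 and -0.23 to 0.24. The sign of Vim turned as deposited (-0.02). Gli3 was 4.02 ± 0.982 and Sox9 2.00 ± 0.990 (SD, n = 4), with changes of 0.11 and 0.03.

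Set directly against each other, the mutants were not told apart by the test on scaled values. In dKO against cKO none of the 10 was called on scaled values, where 6.94% of all tested genes were called, and 2 of the 10 (Sox2 and Nes) had an unadjusted p under 0.05, where 24.0% of all tested genes did. Above 0 were 9 of the 10 changes, all but that of Slc1a3, with a median of 0.19 against 0.01 for all tested genes. Sox2 gave 0.25 (95% interval 0.04 to 0.46, limma adjusted p = 0.134), Pax6 0.27 (adjusted p = 0.254) and Sox9 0.42 (adjusted p = 0.259). Nes was wholly higher in dKO than in cKO, with a change of 0.19 (limma adjusted p = 0.175), and was the only member to be so. Over all tested genes, 7.91% were wholly higher in dKO than in cKO. As deposited, the signs of Pax6, Sox2, Gli3, Nes, Vim, Fabp7, Prom1 and Hmga2 turned, the median of the 10 was -0.11 against -0.26 for all tested genes, and Slc1a3 was called lower (-0.46, limma adjusted p = 0.00899), where 39.4% of all tested genes were called.

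The embryos of a group varied to different degrees. The coefficient of variation of scaled TPM had a median over the 10 genes of 12.99% for control, 7.24% for cKO and 13.51% for dKO, and over all tested genes of 11.6%, 9.75% and 14.3%. The lowest was that of Nes in cKO at 1.31%, and the highest that of Sox9 in dKO at 49.4%. As deposited, Nes in cKO was 18.5 ± 1.80 TPM (SD, n = 4), from 17.09 to 21.03, so its small spread depends on the scaling. Sox9 was 1.48, 3.09, 2.53 and 0.906 scaled TPM in the dKO embryos. Gli3 was 3.29, 4.14, 5.36 and 3.28 in the same embryos, so embryos 2 and 3 were high for both genes.

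The other genes of the radial glia programme came from a wider list of 48 in 4 groups (regulators, surface and matrix genes, metabolic genes and early progenitor genes), of which 44 were tested. In cKO against control 1 was called higher and 5 lower on scaled values, with a median of -0.16, where 7.22% of all tested genes were called. As deposited 11 were called higher and 2 lower, where 35.4% were called. Id4, an inhibitor of basic helix-loop-helix factors that keeps progenitors dividing, fell from 28.0 ± 2.84 to 14.2 ± 1.47 scaled TPM (SD, n = 4), a change of -0.94 (limma adjusted p = 0.000318). Hes5, a Notch effector, fell from 8.65 ± 2.23 to 4.74 ± 0.149, a change of -0.73 (limma adjusted p = 0.00931). Id4 and Hes5 were also called lower as deposited, with changes of -0.64 and -0.46 (limma adjusted p = 0.00707 and 0.0494).

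Lhx2, a selector of cortical identity, fell by 0.51 on the log2 scale, Ttyh1, a membrane protein of progenitors, by 0.49, and Cdon, a Hedgehog co-receptor, by 0.48 (limma adjusted p = 0.0302, 0.0333 and 0.0168). None of these 3 was called as deposited (limma adjusted p = 0.313, 0.336 and 0.197). The higher one was Lin28b, an RNA-binding protein that blocks let-7 maturation in early progenitors. It stood at 1.10 ± 0.166 in control and 1.69 ± 0.203 in cKO (SD, n = 4; limma adjusted p = 0.0489), and it lies outside the naming rule and is named to complete the 6. By group on scaled values, 3 of 14 tested regulators were called lower (median -0.32), 2 of 14 surface genes lower, 1 of 7 early genes higher, and none of 9 metabolic genes. Of all tested genes, 3.26% were called lower and 3.96% higher on scaled values. As deposited, 2 regulators were called lower and 1 higher. Surface genes then gave 5 higher and 0 lower, metabolic genes 4 higher and early genes 1 higher. A separate list of apical junction genes, which hold radial glia together at the ventricle, had 11 tested members, none of them called in cKO against control on scaled values and 5 called higher as deposited. Of all tested genes, 34.3% were called higher and 1.09% lower as deposited.

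In dKO against control 3 of the 44 were called higher and 1 lower (median -0.09), a share near the 9.002% of all tested genes called there. Id4 was lower at 18.1 ± 2.75 scaled TPM (-0.61, limma adjusted p = 0.00676). Pdpn, a membrane glycoprotein, was higher at 10.4 ± 1.66 against 6.66 ± 0.569 in control (SD, n = 4; 0.56, limma adjusted p = 0.0136). Lin28b and the proteoglycan gene Cspg5 were higher by 0.35 and 0.32 (limma adjusted p = 0.0471 and 0.0269), and neither was called as deposited. In dKO against cKO, Psat1, an enzyme of serine synthesis, was the only one called, at 0.38 (limma adjusted p = 0.0382), with 0.05 as deposited. On the deposited values 13 of the 44 were called lower in that comparison and 0 higher. Of all tested genes, 38.8% were called lower there and 0.612% higher.

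**Figure D4:**
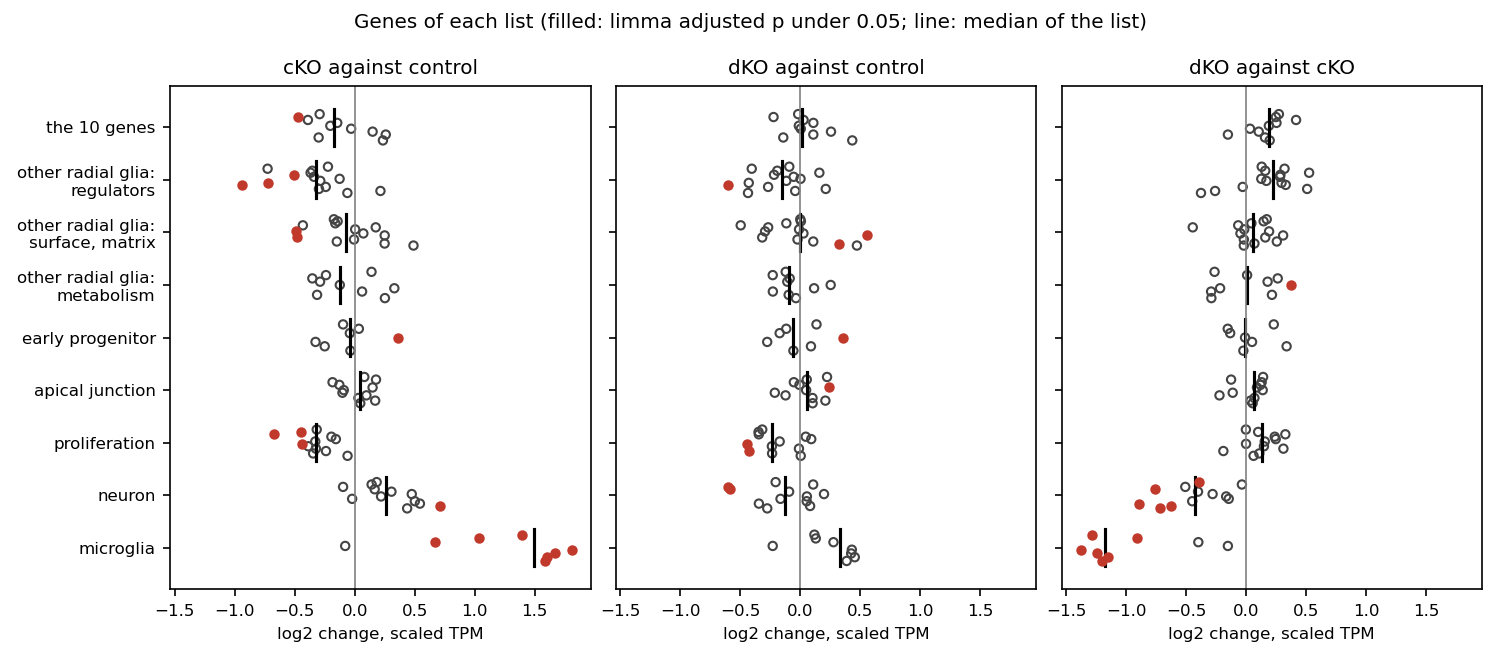
Change in log2(scaled TPM + 1) for the 10 genes, the wider radial glia lists and the apical junction, proliferation, neuron and microglia lists in the 3 comparisons; each point is a tested gene, filled where its limma adjusted p is under 0.05, and lines are medians. In cKO against control the filled points below 0 include Sox2 at -0.47 and Id4 at -0.94, and 7 of 8 microglia genes are filled above 0.

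Markers of other cells in the same tissue moved as well, and their part in the results on the 10 genes was not tested. Bulk tissue cannot tell fewer cells of a type from less RNA per cell. On scaled values, 3.26% of all tested genes were called lower and 3.96% higher in cKO against control. For dKO against cKO, the lower share was 4.22%. Beside the lower Sox2 in cKO, 3 of 12 proliferation genes (Pcna, Top2a and Ccna2) were called lower, and their summed level was 665 to 782 scaled TPM in control, 497 to 582 in cKO and 505 to 657 in dKO. Of 9 intermediate progenitor genes, 4 (Neurog2, Neurog1, Eomes and Sstr2) were called lower, with sums of 65.9 to 78.5, 55.0 to 60.8 and 63.7 to 72.5. Neuron genes gave 1 higher of 12 in cKO (Gap43) and 5 lower of 12 in dKO against cKO, with overlapping sums of 266 to 334, 293 to 378 and 210 to 298. Of 7 genes of pallial identity, 3 (Emx1, Lhx2 and Neurog2) were called lower in cKO. Lhx2 is also counted among the radial glia regulators, and Neurog2 among the intermediate progenitor genes. Emx1, which defines the pallium and drives the Cre, was 9.37, 6.20 and 6.56 scaled TPM on average in control, cKO and dKO. As deposited, Emx1 was not called in cKO (-0.24, limma adjusted p = 0.22) or dKO (-0.47, limma adjusted p = 0.10) against control.

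Microglia genes were called higher in cKO for 7 of 8, with sums of 13.7 to 16.4 in control, 45.9 to 63.2 in cKO and 16.8 to 23.4 in dKO. Vessel genes were called higher for 3 of 7, with sums of 12.1 to 13.6, 19.2 to 21.1 and 15.1 to 23.9. Meninges genes gave 1 higher of 5 (25.8 to 42.3, 40.2 to 44.8 and 40.1 to 60.5), and genes of the cortical hem and choroid plexus 1 higher of 6 (48.5 to 119.6, 68.5 to 242 and 77.2 to 327). Over all tested genes, 3.96% were called higher in cKO against control on scaled values. No marker was at 0 in all embryos of a group. Ventral forebrain genes summed to 2.57 to 5.27 in control, 3.17 to 5.20 in cKO and 2.78 to 8.67 in dKO, with none called. As deposited, cKO against control gave 1 of 12 proliferation, 1 of 9 intermediate progenitor and 1 of 7 pallial genes lower. Neurog2 is the gene in both of the latter counts. Higher there were 1 of 9 intermediate progenitor, 9 of 12 neuron, 7 of 7 vessel and 7 of 8 microglia genes. The deposited shares over all tested genes were 34.3% higher and 1.09% lower. In dKO against control on scaled values, 3 of 5 meninges and 1 of 7 vessel genes were called higher, and 2 of 12 proliferation, 2 of 9 intermediate progenitor, 2 of 12 neuron and 2 of 7 pallial genes lower. The shares over all tested genes in this comparison were 3.95% higher and 5.05% lower. In dKO against cKO, 6 of 8 microglia genes were called lower on scaled values, where 4.22% of all tested genes were.

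For each of the 10 genes, the other tested genes averaging 5 TPM or more whose log2 scaled values followed it most closely over the 12 embryos were listed. The points fall into 3 genotypes, so the correlations carry the genotype differences and are given as a description. Sox2 ran closest with Id4 (Pearson r = 0.95), Rad54l and Hist1h2ah, Prom1 with the mitotic genes Tpx2, Kif2c and Kif20a (0.95, 0.95 and 0.94), and Slc1a3 with Fam20b (0.95), Agtpbp1 and Itm2b. For the others the closest gene was Plagl1 for Gli3 (0.95), Cdkn1b for Pax6 (0.93), Dhx9 for Sox9 (0.93), Pcbp4 for Nes (0.92), Vim with Ddb1 (0.91), Gng10 for Fabp7 (0.91) and Myl12a for Hmga2 (0.91).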

How the data were processed

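Per the labels' protocols, RNA was isolated with Trizol and a Direct-zol kit, and strand-specific libraries of total RNA (TruSeq) were run on a NextSeq500. The submitters' processing notes name HISAT2 and mm10, and the quantification tool, annotation and handling of shared reads are not given in the sources used here. The authors deposited 1 TPM value per gene symbol and embryo; the unit is inferred from sums of 1000000. TPM divides by gene length, so short structural RNAs fill much of each total RNA library and move all other values. Therefore each library was divided by the median over 11527 genes of the ratio to the gene's geometric mean.

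Tests used limma 3.58.1 in R 4.3.3 (lmFit, eBayes with trend) on log2(scaled TPM + 1), over the 11764 genes averaging 1 TPM or more, the 3 groups in one fit with 9 residual degrees of freedom. Benjamini-Hochberg adjusted p under 0.05 was called. The procedure was tested on simulated data. The members, lists and tests were chosen with earlier results of these data known. Named are the 10 members, at most the 5 most changed called genes of the wider lists per comparison, the 3 most alike genes per member, targeted genes and overlapping genes. Alternatives were values as deposited, protein-coding rescaling, median-shift centring, quantile normalization, a pseudocount of 0.1, other filters, 2-group fits, a replicate block and leaving out each embryo. No 2 libraries were near copies (highest correlation 0.971).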

Additional observations from a re-analysis of the deposited data

Results flagged for a closer look

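Of 30 groups examined (10 genes in 3 genotypes), 1 held an embryo far from the other 3. Hmga2 in cKO was 7.66 scaled TPM in embryo 4 and 5.28 to 5.66 in the others, a gap of 0.84 of the group's range. Chance gives about 1 in 20, or 1.5 of 30 groups.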

How the results depend on the processing

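Sox2 in cKO against control stayed lower under every alternative, from -0.53 to -0.42 when embryos were left out, and was called under all but the values as deposited. Of the values of members under the alternatives, 576 kept direction and side of the threshold, 38 turned direction, 9 passed the threshold anew and 1 lost it. The cause of these changes was not tested.

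Members called in cKO against control numbered 3 as deposited (Fabp7, Slc1a3 and Hmga2, all higher). They numbered 2 under protein-coding rescaling, quantile normalization and the fit of 2 groups. Protein-coding rescaling called Slc1a3 higher (0.40, limma adjusted p = 0.023) beside the lower Sox2. Quantile normalization called Fabp7 higher (0.40, limma adjusted p = 0.043) beside the lower Sox2. With an embryo left out, 1 to 2 members were called in cKO against control. Without dKO embryo 2, Prom1 joined Sox2 (limma adjusted p = 0.0488). In dKO against control 0 to 1 was called, Hmga2 without dKO embryo 2 (0.56, limma adjusted p = 0.0353). In dKO against cKO 1 was called as deposited and 0 to 0 with an embryo left out.

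Over all genes, cKO against control gave 4163 calls as deposited, 1539 under protein-coding rescaling, 398 at a mean of at least 5 TPM, and 496 to 1137 with an embryo left out. For dKO against control the counts were 610 as deposited, 543 at 5 TPM, 474 with 2 groups, and 604 to 1190. For dKO against cKO they were 4636, 346, 442, and 238 to 873. Same-numbered embryos did not deviate together (correlations -0.10 to 0.08). The labels name no litters, so this cannot settle whether the numbers stand for litters or batches. They were not used as pairs in the main fit. With the replicate number as a block, 550, 646 and 458 genes were called in the 3 comparisons in place of 849, 1059 and 816, and no call of a member changed.

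Directions turned in cKO against control for Gli3 (0.0929), Nes (0.0891) and Vim (0.28) as deposited, and for Vim under protein-coding rescaling (0.12), median-shift centring (0.0268) and quantile normalization (0.16). In dKO against control they turned for Vim as deposited (-0.0198) and under the shift (-2e-04), and for Pax6 (0.024) and Nes (0.029) under protein-coding rescaling. In dKO against cKO the deposited values turned Pax6 (-0.0359), Sox2 (-0.0501), Gli3 (-0.005), Nes (-0.12), Vim (-0.30), Fabp7 (-0.22), Prom1 (-0.16) and Hmga2 (-0.0935). There Vim also turned under protein-coding rescaling (-0.0744), the shift (-0.027) and quantile normalization (-0.15), as did Fabp7 under protein-coding rescaling (-0.0019) and quantile normalization (-0.14). With an embryo left out, Vim ran from -0.10 to 0.0336 in cKO against control and from -0.0305 to 0.11 in dKO against cKO. In dKO against control the ranges were -0.13 to 0.12 for Pax6, -0.14 to 0.23 for Sox9, -0.0109 to 0.18 for Gli3, -0.0603 to 0.0564 for Nes and -0.0669 to 0.0808 for Vim. Depth is unknown, and Sox9 and Gli3 fall below a mean of 5 TPM.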
